A study of Bos taurus with 6 samples.

Results

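The genes described here encode the enzymes that carry glucose to lactate (glycolysis) and oxidise acetyl-CoA in mitochondria (the tricarboxylic acid cycle), with the glucose carriers, the makers of fructose 2,6-bisphosphate and a pair of enzymes that link pyruvate, oxaloacetate and phosphoenolpyruvate. They were chosen by symbol from a list of 44 genes, of which 40 had a row under that name among the 24616 genes of the deposited FPKM table. FPKM counts sequenced fragments per unit of gene length and of library size. No row carried the symbols SLC2A3, GAPDH, PGAM1 or SDHD, and SLC2A3 and SDHD are not analysed here. For GAPDH, a row without a symbol (ENSBTAG00000014731) was described in the table as glyceraldehyde-3-phosphate dehydrogenase and is given under that name beside the 40. For phosphoglycerate mutase, the row that the table names PGAM4 (ENSBTAG00000012697) is given under that name and is not counted as PGAM1.

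RNA was sequenced from bovine (Bos taurus) mammary epithelial cells, with 3 libraries of cells given acetate (labelled NaAc, the sodium salt) and BHBA (beta-hydroxybutyrate, a ketone body) and 3 libraries of control cells. The sources used here give no dose, time, breed or age, nor do they say that the libraries stem from separate cultures, so p-values measure only how these libraries vary, which may be technical variation. No control with matched sodium is named, so sodium and the 2 substrates cannot be told apart. Depth is unknown, because FPKM holds no read counts.

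Glycolysis splits glucose into pyruvate in the cytosol, with hexokinase, phosphofructokinase and pyruvate kinase as its controlled steps, and lactate dehydrogenase interconverts pyruvate and lactate. In mitochondria the cycle joins acetyl-CoA to oxaloacetate and returns carbon dioxide, NADH and FADH2. The ruminant mammary gland spends much of its glucose on lactose and builds its milk fatty acids mainly from acetate and BHBA, and cytosolic isocitrate dehydrogenase is one of its sources of NADPH for that synthesis.

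The libraries differed in ways that touch the values below. Summed FPKM was 787186 to 936152 in the acetate and BHBA libraries and 816087 to 1134026 in the control libraries, with control replicate 1 the highest. Control replicate 1 held the highest or lowest of the 6 values for 24 of the 39 members tested (61.5%) and for 73.9% of all genes tested. The median coefficient of variation over members was 7.11% in the acetate and BHBA libraries and 16.0% in the control libraries. All 8 epithelial markers were present in every library, with a summed level of 12507 to 14965 FPKM with acetate and BHBA and 15549 to 20353 FPKM in control. The 9 fibroblast markers summed to 51.1 to 57.3 FPKM with acetate and BHBA and 28.0 to 45.2 FPKM in control, and THY1 alone averaged 16.8 FPKM with acetate and BHBA and 4.31 FPKM in control. The 5 endothelial markers summed to 4.47 to 6.47 FPKM with acetate and BHBA and 3.21 to 5.26 FPKM in control. The 6 leukocyte markers, mostly CD14, summed to 7.08 to 8.38 FPKM with acetate and BHBA and 4.26 to 5.62 FPKM in control. The 4 adipocyte markers summed to 1.23 to 2.17 FPKM with acetate and BHBA and 0.42 to 0.54 FPKM in control. LEP averaged 1.51 FPKM with acetate and BHBA and 0.137 FPKM in control, whereas PLIN1 averaged 0.17 and 0.31 FPKM. Without overlap between the groups, the epithelial sum was lower and the fibroblast, leukocyte and adipocyte sums higher with acetate and BHBA. With THY1 left out, the fibroblast sums of the groups overlapped. Among epithelial markers, KRT5 and CDH1 were lower and KRT14 higher in every acetate and BHBA library, and the others overlapped. The leukocyte marker MS4A1 was at 0 in every library, and the defining PECAM1, PTPRC and ADIPOQ stayed under 0.1 FPKM in every library. In such bulk RNA, fewer cells of a type and less RNA per cell cannot be told apart, and the part of cell mixture in the results was not tested.

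Of the 39 members with a mean of at least 1 FPKM, 1 rose with acetate and BHBA and 0 fell (limma on log2(FPKM + 0.5), Benjamini-Hochberg adjusted p under 0.05 over all genes tested). Among all 11615 genes tested, 0.474% passed, 0.344% higher and 0.129% in the lower direction. An unadjusted p under 0.05 was reached by 4 members (10.3%), against 11.0% of all genes. The gene that rose was PFKM, a minor subunit of phosphofructokinase. The other 38 had log2 fold changes from -0.30 (PFKL) to 1.09 (ALDOC), and 33 of the 39 lay within 0.3 of 0. For 35 of the 39, the 95% interval of the log2 fold change lay wholly between -1 and 1, so that a change of 2-fold or more was outside it, and for the same number it included 0. The median log2 fold change was 0.11 for the members and 0.08 for all genes tested. All acetate and BHBA libraries lay above all control libraries for 9 members (23.1%), as for 13.0% of all genes, and below them for 2 members (5.13%), as for 6.69% of all genes. The 9 were PFKM, PFKFB4, ALDOC, LDHA, PC, CS, IDH2, OGDH and SDHA, and the 2 were PGK1 and ACO1.

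**Figure D1:**
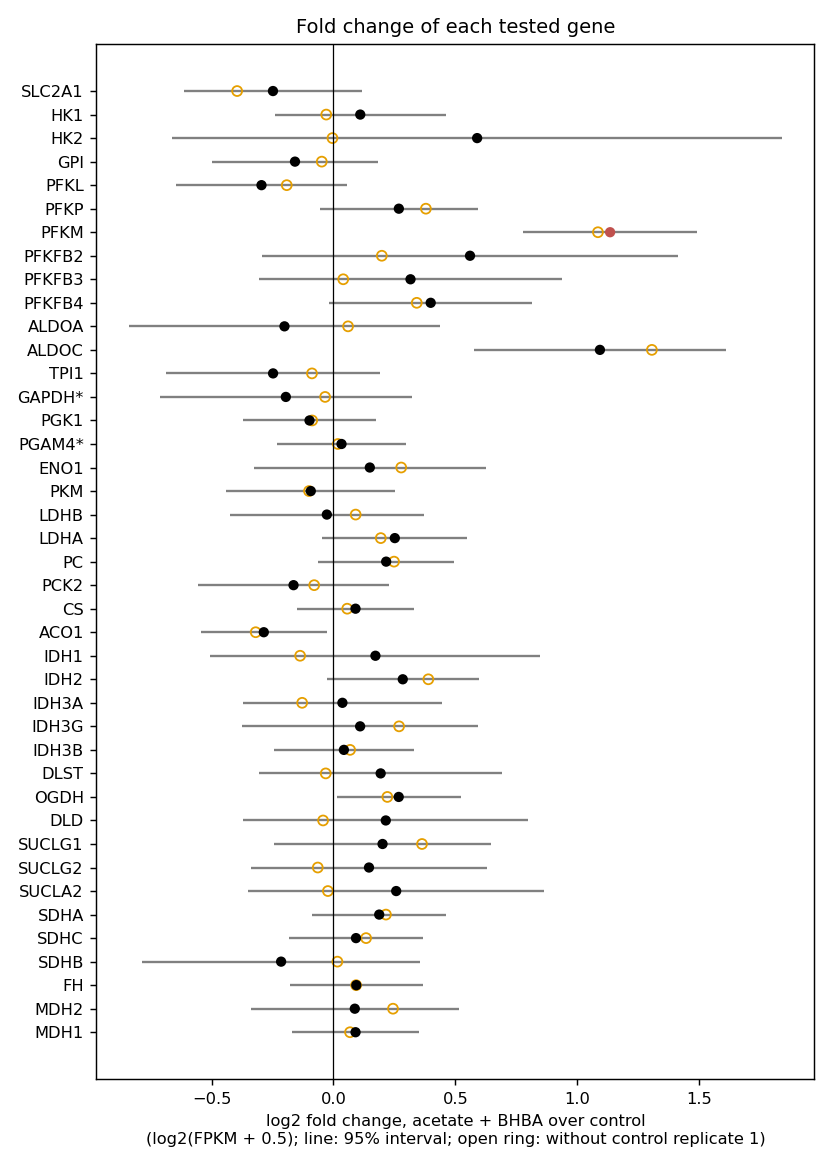
Log2 fold change, acetate and BHBA over control, of the 39 members tested and of the rows GAPDH and PGAM4 (asterisks), in pathway order. Points are limma estimates on log2(FPKM + 0.5) from 3 libraries a group, lines their 95% intervals, and open rings the estimate without control replicate 1. PFKM (red, 1.13) is the 1 gene past the threshold, ALDOC lies close to it at 1.09, and most others lie within 0.3 of 0.

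Levels fell into tiers along the pathway. ENO1 (enolase, mean 1952 FPKM over the 6 libraries), PKM (pyruvate kinase, 1398 FPKM) and ALDOA (aldolase A, 910.5 FPKM) led the 40, and ENO1 lay above 99.3% of all genes tested. LDHB, TPI1, PGK1 and LDHA followed at 461 to 375 FPKM. The cycle enzymes stood lower, from 208 FPKM for IDH3A and 197 FPKM for SDHA to 24.8 for DLD, 23.6 for ACO1 and 22.6 for SUCLA2. PFKFB2, PFKM, PFKFB3 and PFKFB4 (9.42 to 4.93 FPKM) and ENO2 (0.492 FPKM) came last. Together, the 19 glycolytic members found by name made up 0.751%, 0.756% and 0.723% of all FPKM with acetate and BHBA and 0.665%, 0.766% and 0.718% in control, and the 19 cycle members 0.200% to 0.222% with acetate and BHBA and 0.152% to 0.207% in control. Both shares of all FPKM were lowest in control replicate 1. Of the 39 neighbouring pairs in this order, only 5 had library ranges that did not overlap, namely ENO1 above PKM, ALDOA above LDHB, LDHA above IDH3A, IDH2 above DLD and PFKFB4 above ENO2. Other neighbours in that order did not differ beyond their spread over libraries.

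**Figure D2:**
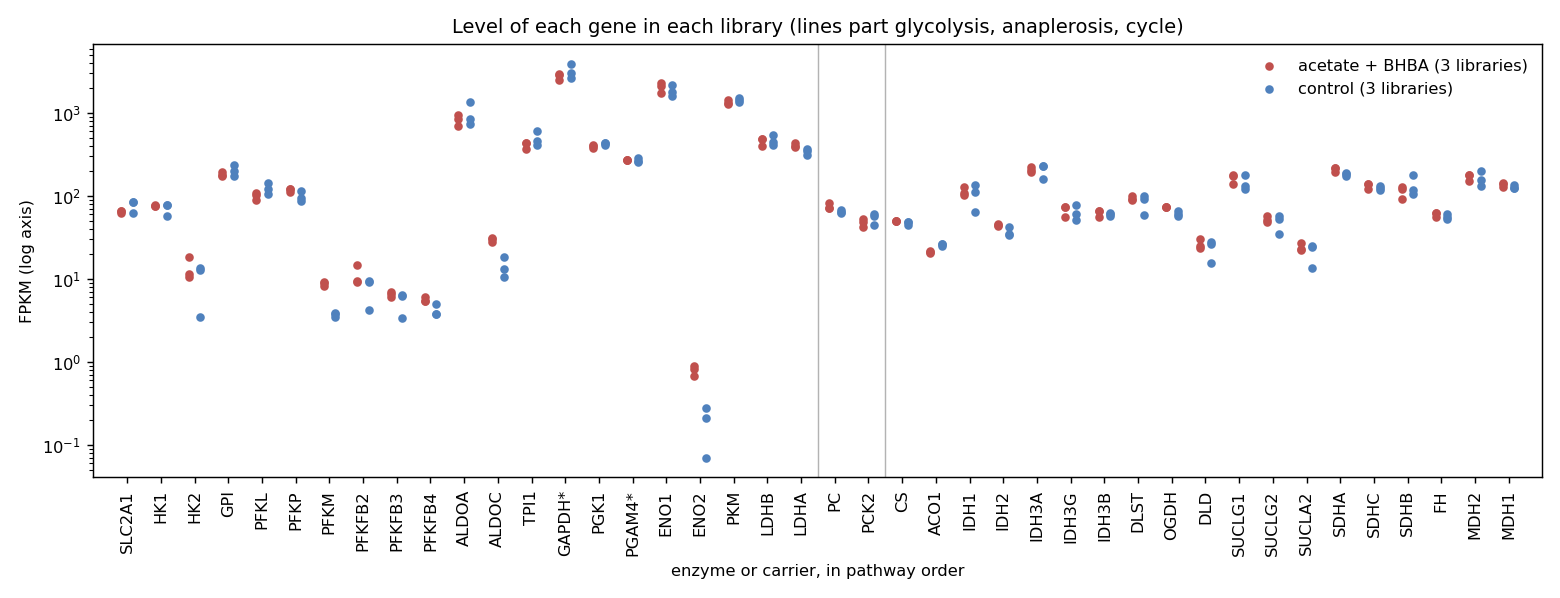
FPKM of each gene in each library on a log axis, in pathway order, with acetate and BHBA libraries in red on the left of each pair and control libraries in blue on the right. The GAPDH row (2976 FPKM on average), ENO1 (1952 FPKM), PKM and ALDOA hold the highest levels. The cycle enzymes lie between 20.9 and 210 FPKM as group means, and the groups part clearly for PFKM, ALDOC and ENO2.

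Glucose enters through carriers and is trapped by hexokinase. SLC2A1, which encodes the basal carrier GLUT1, had 65.6, 65.6 and 62.2 FPKM in acetate and BHBA replicates 1 to 3 and 62.4, 84.9 and 84.8 FPKM in control replicates 1 to 3. Control replicate 1 sat among the acetate and BHBA libraries, while the other control libraries lay above them. The log2 fold change was -0.25 ± 0.15 (SE, adjusted p = 0.683), or -0.40 without control replicate 1 (adjusted p = 0.0922).

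HK1 was the more abundant of the 2 member hexokinases, at 76.0 ± 1.36 FPKM with acetate and BHBA and 71.0 ± 11.3 FPKM in control (SD, n = 3 each; log2 fold change 0.11, adjusted p = 0.906). It made up 80.2% to 88.1% of the summed FPKM of HK1 and HK2 in the acetate and BHBA libraries and 85.3% to 94.3% in the control libraries. HKDC1, a related hexokinase that is no member and was looked at after its values were seen, is not in that sum and averaged 15.3 ± 1.29 FPKM with acetate and BHBA and 13.0 ± 3.65 FPKM in control (SD, n = 3 each), near the level of HK2. HK2, the inducible form, had 18.5, 10.5 and 11.5 FPKM with acetate and BHBA and 3.47, 12.9 and 13.4 FPKM in control. Its low value in control replicate 1 gave a log2 fold change of 0.59 ± 0.52 (adjusted p = 0.830), which was -0.0042 without that library. GPI, the isomerase that follows, had 173, 192 and 180 FPKM with acetate and BHBA and 236, 199.8 and 176 FPKM in control (log2 fold change -0.16 ± 0.14, adjusted p = 0.837).

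Phosphofructokinase commits sugar to glycolysis and is a tetramer of liver-type (PFKL), muscle-type (PFKM) and platelet-type (PFKP) subunits. PFKM had 9.25, 8.89 and 8.13 FPKM with acetate and BHBA and 3.43, 3.81 and 3.91 FPKM in control. Every acetate and BHBA library held over 2 times the level of any control library. Its log2 fold change was 1.13 ± 0.15 (SE, 95% interval 0.78 to 1.49, a 2.20-fold rise on that scale, adjusted p = 0.0444). The size lay at 1.0 to 1.21 over 17 alternative settings. The sum of fibroblast markers was also higher in every acetate and BHBA library, and its part in the result for PFKM was not tested. Of these markers, THY1, LUM, DCN and FAP were higher in every such library. COL1A1, COL1A2, COL3A1, PDGFRA and PDGFRB overlapped between the groups, as did the sum of fibroblast markers with THY1 left out. The call of PFKM held in 6 of the 17 settings. Over all 17, its adjusted p in limma ran from 0.00114 to 0.618. The call was lost on leaving out any library other than control replicate 1 (adjusted p = 0.185 to 0.330).

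The estimates of the abundant subunits had opposite signs, and neither passed the test. PFKL had 90.2, 102 and 108 FPKM with acetate and BHBA and 142, 122 and 107 FPKM in control (log2 fold change -0.30 ± 0.15, adjusted p = 0.555). PFKP had 112, 121 and 122 FPKM with acetate and BHBA and 115, 94.0 and 87.8 FPKM in control (log2 fold change 0.27 ± 0.14, adjusted p = 0.570). The groups overlapped for each gene taken alone.

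Their ratio within a library, which no scaling of whole libraries can move, did not overlap. PFKP over PFKL was 1.24, 1.18 and 1.13 with acetate and BHBA and 0.808, 0.771 and 0.821 in control. By FPKM, PFKP was thus the highest subunit in all 3 acetate and BHBA libraries and PFKL in all 3 control libraries. Control replicate 1 was no exception. The gene lengths used for FPKM are not given, so which subunit had more transcripts is uncertain. A fixed error in length would move the ratio alike in both groups. As shares of the FPKM of all subunits, PFKL made up 42.6% to 45.4% with acetate and BHBA and 53.8% to 55.5% in control. PFKP made up 52.1% ± 0.90 with acetate and BHBA and 43.7% ± 0.79 in control, and PFKM 3.87% ± 0.48 with acetate and BHBA and 1.67% ± 0.33 in control (SD, n = 3 each). Shares are given without a test, since 3 libraries against 3 allow no exact 2-sided p below 0.1.

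**Figure D3:**
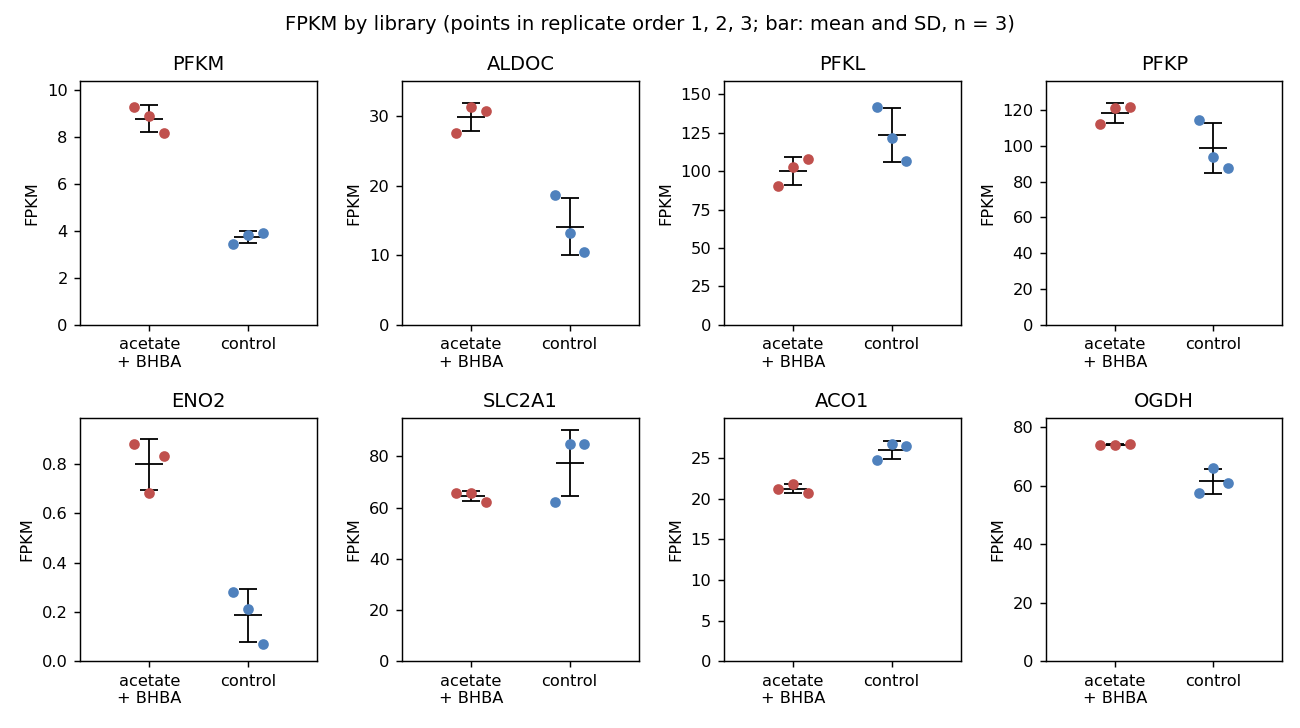
FPKM of 8 members in each library, acetate and BHBA in red on the left and control in blue on the right, points in replicate order 1 to 3, bars mean and SD (n = 3). PFKM, ALDOC, ENO2 and OGDH lie higher and ACO1 lower in all 3 acetate and BHBA libraries, PFKL and PFKP overlap between groups, and control replicate 1 of SLC2A1 sits with the acetate and BHBA libraries at 62.4 FPKM.

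Fructose 2,6-bisphosphate, the activator of phosphofructokinase, is made and broken down by the PFKFB enzymes. PFKFB2 was the most abundant of the 3, with 14.9, 9.24 and 9.36 FPKM with acetate and BHBA and 4.18, 9.56 and 9.30 FPKM in control. The log2 fold change of 0.56 ± 0.35 (adjusted p = 0.703) was 0.20 without control replicate 1. PFKFB4 had 5.45, 6.05 and 5.47 FPKM with acetate and BHBA and 3.81, 4.98 and 3.80 FPKM in control, so that the groups did not overlap (log2 fold change 0.40 ± 0.17, adjusted p = 0.479). PFKFB3 had means of 6.51 ± 0.38 FPKM with acetate and BHBA and 5.32 ± 1.72 FPKM in control (log2 fold change 0.32 ± 0.26, adjusted p = 0.810, and 0.04 without control replicate 1).

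Aldolase splits fructose 1,6-bisphosphate, and ALDOA supplied nearly all of the FPKM of ALDOA and ALDOC. ALDOA had 700.0, 955 and 848 FPKM with acetate and BHBA and 1366, 857 and 736 FPKM in control (log2 fold change -0.20 ± 0.26, adjusted p = 0.906, or 0.06 without control replicate 1). ALDOC, the form best known from brain, had 27.5, 31.3 and 30.7 FPKM with acetate and BHBA and 18.6, 13.1 and 10.5 FPKM in control. Its lowest acetate and BHBA library stood above its highest control library, but the log2 fold change of 1.09 ± 0.21 (95% interval 0.58 to 1.61) did not pass, with adjusted p = 0.107. Without control replicate 1 it was 1.31 and passed (adjusted p = 0.0172), as did 1.76% of all genes, and PFKM was the other of the 2 members called there. ALDOC made up 3.48% ± 0.30 of the summed FPKM of ALDOA and ALDOC with acetate and BHBA and 1.42% ± 0.08 in control (SD, n = 3 each), and its share was 1.34% in control replicate 1, close to the 1.51% and 1.41% of the other control libraries.

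The trunk of lower glycolysis, where TPI1 interconverts the trioses and GAPDH, PGK1, phosphoglycerate mutase, enolase and pyruvate kinase lead to pyruvate, gave no calls, nor an unadjusted p under 0.05 for any of these genes (limma). TPI1 had 366, 440 and 435 FPKM with acetate and BHBA and 611, 463 and 415 FPKM in control (log2 fold change -0.25 ± 0.18, adjusted p = 0.774). The GAPDH row had 2489, 2929 and 2854 FPKM with acetate and BHBA and 3937, 3025 and 2623 FPKM in control (log2 fold change -0.20, 95% interval -0.71 to 0.32, adjusted p = 0.880). In TPI1, GAPDH and ALDOA alike the highest of the 6 values was that of control replicate 1.

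PGK1, the first step to yield ATP, had 379, 408 and 402 FPKM with acetate and BHBA and 431, 433 and 409 FPKM in control. The groups did not overlap, yet the log2 fold change was only -0.10 ± 0.11 (95% interval -0.37 to 0.17, adjusted p = 0.889). The PGAM4 row stood at 275 ± 0.43 FPKM with acetate and BHBA and 269 ± 16.7 FPKM in control (log2 fold change 0.03, adjusted p = 0.956). PKM had 1306, 1456 and 1298 FPKM with acetate and BHBA and 1427, 1529 and 1372 FPKM in control (log2 fold change -0.09, 95% interval -0.44 to 0.25, adjusted p = 0.919). Many mammalian glycolytic genes have near-identical processed copies, so the levels of such rows are uncertain where reads could be shared.

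ENO1 had 1762, 2271 and 2115 FPKM with acetate and BHBA and 2197, 1774 and 1593 FPKM in control (log2 fold change 0.15 ± 0.20, adjusted p = 0.906). ENO2, the gamma enolase known from neurons, lay below the level required for testing, with 0.88, 0.68 and 0.83 FPKM with acetate and BHBA and 0.28, 0.21 and 0.07 FPKM in control. The groups did not overlap, but ENO2 was at most 0.05% of the summed FPKM of ENO1 and ENO2 in any library.

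Lactate dehydrogenase is a tetramer of A subunits (LDHA), which favour lactate, and B subunits (LDHB). LDHA had 398, 436 and 390 FPKM with acetate and BHBA and 316, 367 and 345 FPKM in control, without overlap (log2 fold change 0.25 ± 0.12, adjusted p = 0.552). LDHB had 398, 480 and 489 FPKM with acetate and BHBA and 545, 446 and 407 FPKM in control (log2 fold change -0.03 ± 0.16, adjusted p = 0.975). The ratio of LDHA over LDHB was 1.0, 0.907 and 0.798 with acetate and BHBA and 0.580, 0.823 and 0.849 in control, so the balance of the subunits overlapped between the groups.

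Pyruvate enters the oxaloacetate pool through PC, pyruvate carboxylase, and PCK2 turns mitochondrial oxaloacetate into phosphoenolpyruvate. PC had 71.7, 83.4 and 71.2 FPKM with acetate and BHBA and 67.7, 64.7 and 61.8 FPKM in control, all acetate and BHBA libraries above all control ones (log2 fold change 0.22 ± 0.12, adjusted p = 0.610). PCK2 had 42.0, 48.1 and 53.3 FPKM with acetate and BHBA and 60.0, 56.9 and 44.4 FPKM in control (log2 fold change -0.16 ± 0.16, adjusted p = 0.855).

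Of the 19 cycle genes, 0 passed the threshold in limma and 2 (ACO1 and OGDH) had an unadjusted p under 0.05, with log2 fold changes from -0.29 to 0.28. On the higher side were 17 of the 19, but 12 without control replicate 1 and 10 with trimmed-mean scaling, and 61.9% of all genes tested were on that side as well. All 19 intervals of the log2 fold change lay between -1 and 1. The range of changes was thus narrower than in glycolysis, whose 18 tested members ran from -0.30 to 1.13.

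CS, citrate synthase, joins acetyl-CoA to oxaloacetate and had 50.4, 50.5 and 50.0 FPKM with acetate and BHBA and 45.0, 48.3 and 48.3 FPKM in control. Its groups did not overlap although the log2 fold change was 0.09 (95% interval -0.15 to 0.33, adjusted p = 0.882). ACO1, the cytosolic aconitase that doubles as an iron-sensing RNA-binding protein, had 21.1, 21.8 and 20.7 FPKM with acetate and BHBA and 24.8, 26.7 and 26.4 FPKM in control. All acetate and BHBA libraries lay below all control ones, with a log2 fold change of -0.29 ± 0.11 (unadjusted interval -0.54 to -0.03) that did not pass (adjusted p = 0.392).

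The isocitrate dehydrogenases come in NADP and NAD forms. IDH1, the cytosolic NADP enzyme, had 129, 108 and 102 FPKM with acetate and BHBA and 64.7, 112 and 136 FPKM in control (log2 fold change 0.17 ± 0.28, adjusted p = 0.923, or -0.14 without control replicate 1). IDH2, its mitochondrial counterpart, had 43.8, 46.3 and 44.8 FPKM with acetate and BHBA and 42.7, 34.8 and 33.7 FPKM in control, without overlap (log2 fold change 0.28 ± 0.13, adjusted p = 0.514). IDH1 made up 71.3% ± 2.87 of their summed FPKM with acetate and BHBA and 72.2% ± 10.6 in control (SD, n = 3 each), so the balance between cytosol and mitochondria did not differ beyond the spread of the control libraries.

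Of the NAD enzyme, the catalytic subunit IDH3A led, with 223, 196 and 209 FPKM with acetate and BHBA and 162, 229 and 228 FPKM in control (log2 fold change 0.04 ± 0.17, adjusted p = 0.970, and -0.13 without control replicate 1). The log2 fold change of IDH3G was 0.11 and that of IDH3B 0.04, and IDH3A made up 58.3% to 66.8% of the subunit FPKM with acetate and BHBA and 53.5% to 67.7% in control.

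The 2-oxoglutarate dehydrogenase complex holds OGDH (E1), DLST (E2) and DLD (E3, shared with the pyruvate dehydrogenase complex). OGDH had 74.0, 73.9 and 74.4 FPKM with acetate and BHBA and 57.6, 66.1 and 61.1 FPKM in control. The coefficient of variation over the acetate and BHBA libraries was 0.332%, the smallest of the 39 members. These libraries lay above every control library (log2 fold change 0.27 ± 0.11, adjusted p = 0.418). DLST, the most abundant of the complex, had 99.1, 89.9 and 92.0 FPKM with acetate and BHBA and 59.7, 101 and 90.9 FPKM in control (log2 fold change 0.19 ± 0.21, adjusted p = 0.877, and -0.03 without control replicate 1). For DLD it was 0.21 (adjusted p = 0.887) and turned to -0.04 without that library.

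Succinyl-CoA ligase pairs the alpha subunit SUCLG1 with an ATP-type (SUCLA2) or GTP-type (SUCLG2) beta subunit. SUCLG1 had 140, 179 and 174 FPKM with acetate and BHBA and 178, 133 and 121 FPKM in control (log2 fold change 0.20 ± 0.19, adjusted p = 0.842). SUCLG2 exceeded SUCLA2 in every library, 2.10 to 2.25 times with acetate and BHBA and 2.16 to 2.60 times in control. Their log2 fold changes were 0.15 for SUCLG2 and 0.26 for SUCLA2, and both were below 0 (-0.06 and -0.02) without control replicate 1.

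Succinate dehydrogenase also serves as complex II of the respiratory chain. Its flavoprotein SDHA had 192, 220 and 217 FPKM with acetate and BHBA and 191, 186 and 175 FPKM in control, without overlap (log2 fold change 0.19 ± 0.11, adjusted p = 0.683). The iron-sulfur subunit SDHB had 92.2, 127 and 120 FPKM with acetate and BHBA and 179, 117 and 105 FPKM in control (log2 fold change -0.21 ± 0.24, adjusted p = 0.880, and 0.02 without control replicate 1). SDHA over SDHB was 2.09, 1.74 and 1.81 with acetate and BHBA and 1.07, 1.59 and 1.67 in control. The groups did not overlap, with or without control replicate 1, the lowest of the 6. The membrane anchor SDHC had a log2 fold change of 0.09.

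The cycle closes with fumarase (FH) and malate dehydrogenase. FH had 55.4, 62.5 and 63.2 FPKM with acetate and BHBA and 56.4, 59.8 and 53.3 FPKM in control (log2 fold change 0.09, 95% interval -0.18 to 0.37, adjusted p = 0.898). The mitochondrial MDH2 had 151, 181 and 180 FPKM with acetate and BHBA and 199, 155 and 133 FPKM in control (log2 fold change 0.09 ± 0.18, adjusted p = 0.934). The cytosolic MDH1, which also works in the malate shuttle, had 128, 140 and 142 FPKM with acetate and BHBA and 124, 136 and 125 FPKM in control (log2 fold change 0.09 ± 0.11, adjusted p = 0.897). MDH2 made up 54.1% to 56.4% of the pair with acetate and BHBA and 51.6% to 61.6% in control, with means of 55.5% in both groups.

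Subunit and isoform shares were compared at the 12 steps with at least 2 members, over the members alone, so that paralogs outside the list such as HKDC1 and ENO3 are not counted. In 4 of them a share did not overlap between the groups, namely phosphofructokinase, aldolase, enolase and succinate dehydrogenase. How often shares in other gene families part the groups was not computed, so this count has no background to be read against. The enolase case rests on ENO2, which was not tested and lay at 0.07 to 0.88 FPKM. For PFKP and PFKL the share in control replicate 1 lay between those of the other control libraries, whereas the succinate dehydrogenase shares differed most in that library. In the other 8 steps, which include hexokinase, lactate dehydrogenase and both isocitrate dehydrogenases, the shares overlapped.

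**Figure D4:**
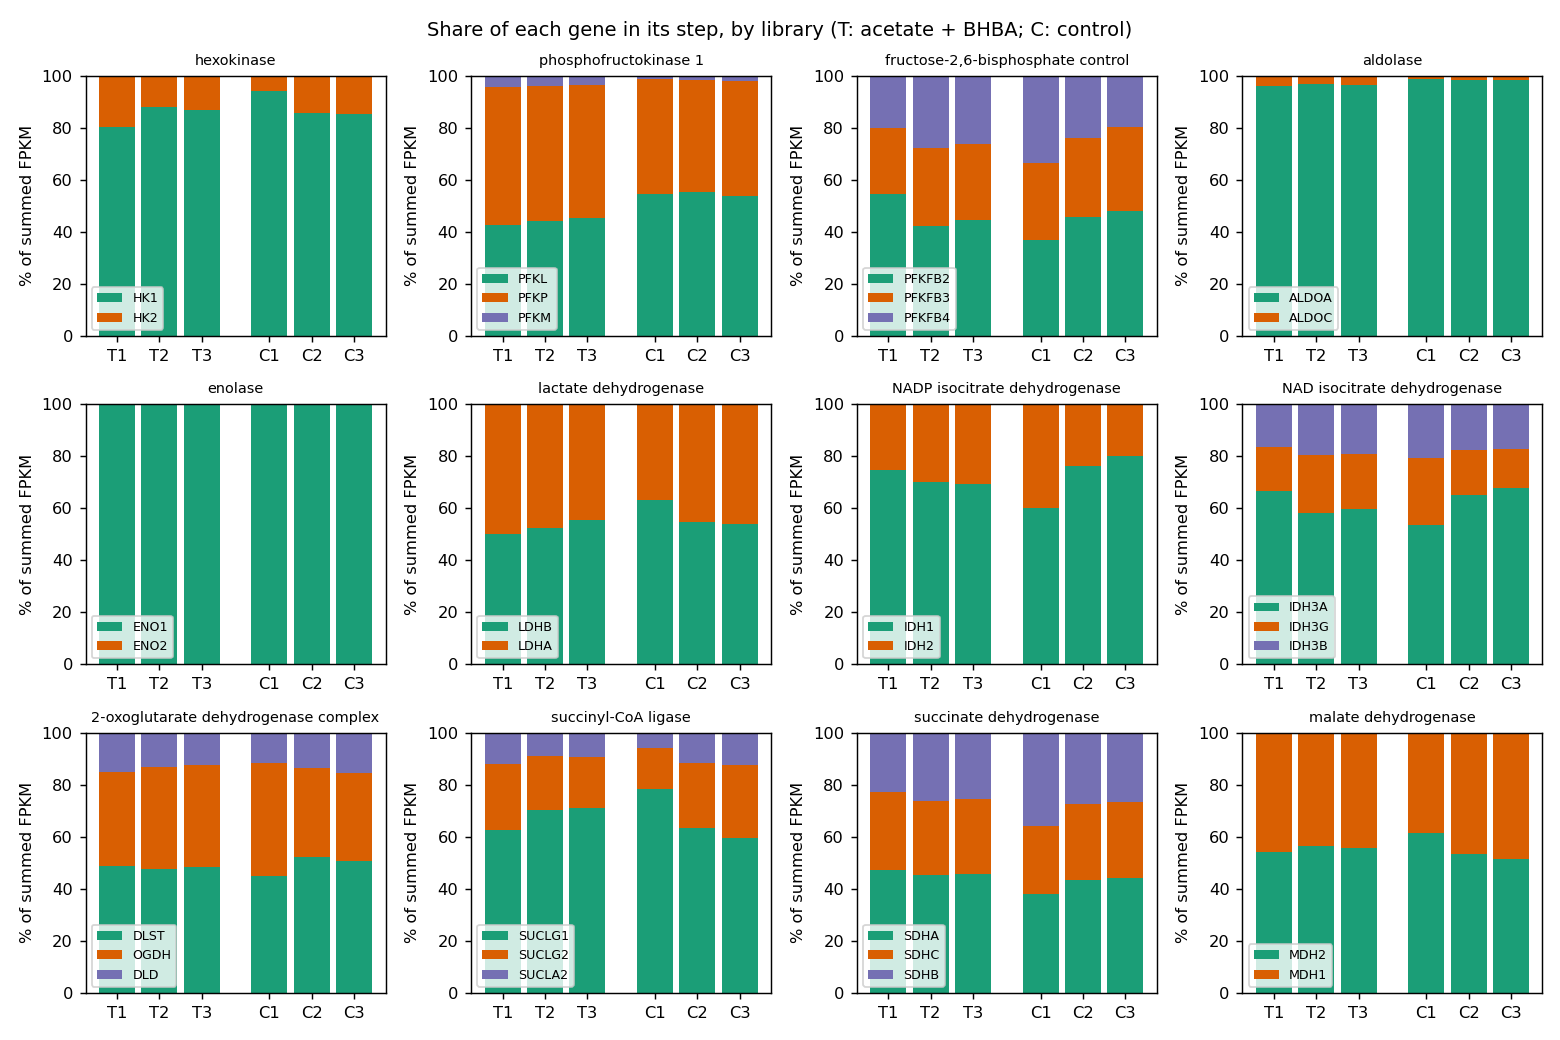
Share of each gene in the summed FPKM of its step, in percent, for the 12 steps with at least 2 members, acetate and BHBA libraries (T1 to T3) on the left and control libraries (C1 to C3) on the right. PFKP takes 51.2% to 53.0% of phosphofructokinase with acetate and BHBA and 42.8% to 44.2% in control, while shares such as those of IDH1 and SUCLG1 vary most through C1.

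Control replicate 1 set the spread of many members. It held the lowest of the 6 values for 15 of the 39, among them HK2 (0.264 times the mean of the other control libraries), PFKFB2 (0.443), IDH1 (0.522), PFKFB3 (0.529), SUCLA2 (0.550) and DLD (0.578). It held the highest for 9, among them ALDOA (1.72 times), SDHB (1.62) and TPI1 (1.39). PFKM (0.889) and PGK1 (1.02) stood close to the other controls there. With the log2 of summed FPKM as a covariate, 11 members passed, 8 higher (PFKM, PFKFB2, PFKP, OGDH, SUCLG1, ALDOC, ENO1 and IDH2) and 3 lower (ACO1, SLC2A1 and PFKL). These were 20.5% and 7.69% of the members. Of all 11615 genes tested, that fit called 1361 higher and 728 lower. Both directions together were 18.0% of all genes. That share compares with the 11 of 39 members and not with the share of either direction alone.

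**Figure D5:**
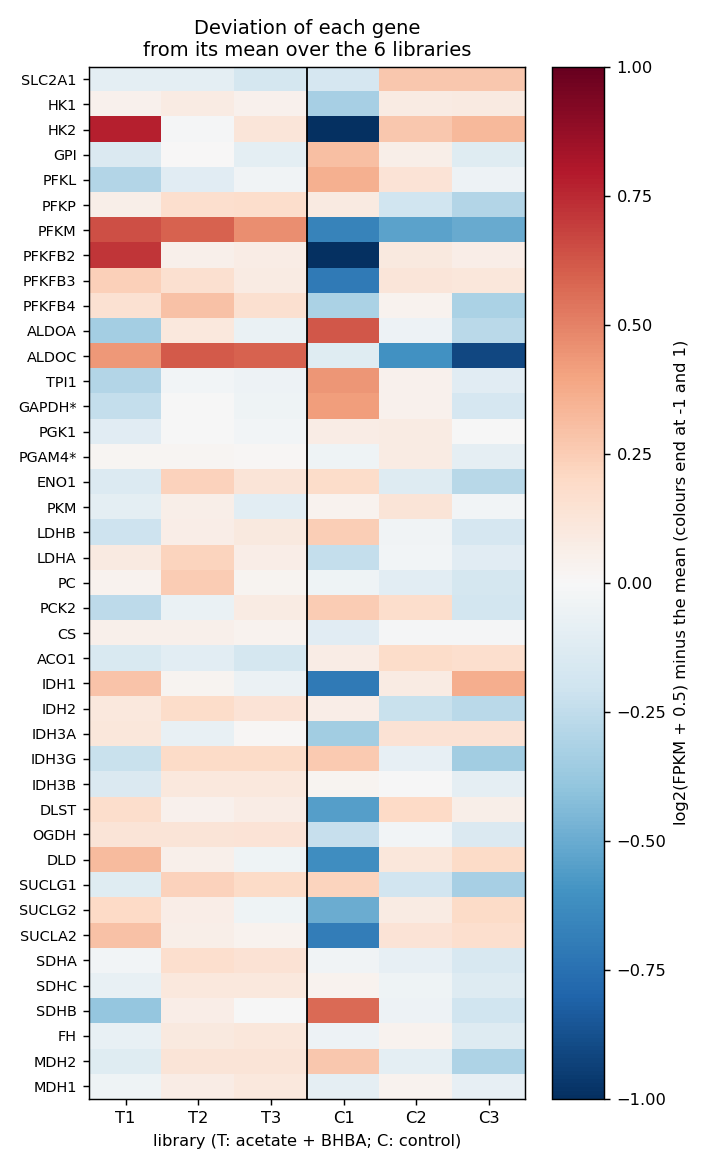
Deviation of log2(FPKM + 0.5) from each gene's mean over the 6 libraries, for the 39 members tested and the rows GAPDH and PGAM4 (asterisks), in pathway order; red is above and blue below the mean, and colours end at -1 and 1. Column C1 (control replicate 1) is the most strongly coloured, with HK2, PFKFB2 and IDH1 low and ALDOA and SDHB high, whereas PFKM and ALDOC part the T columns from the C columns.

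Further genes of glucose and cycle metabolism were read from a list of 62 symbols, of which 60 were found and 44 rows tested. None of the 44 passed the threshold (limma). An unadjusted p under 0.05 was reached by 9 of the 44, a larger share than the 11.0% of all genes tested. On the higher side were 30 of the 44, a share slightly above the 61.9% of all genes. The list was chosen with earlier results of these data known, so these shares are no test. Their median log2 fold change was 0.26, and that of all genes 0.08. They covered other glucose carriers and paralogs, gluconeogenesis, assembly factors, glycogen and lactose branches, redox shuttles and regulators. In the fit with summed FPKM as a covariate 14 of the 44 passed, and in the other 16 alternatives 0 did.

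Among them, SLC2A5, a fructose carrier, matched 2 rows of the same protein accession, which may share reads. The first row had 86.0, 75.9 and 89.7 FPKM with acetate and BHBA and 51.8, 53.5 and 41.4 FPKM in control (ENSBTAG00000034323, log2 fold change 0.78 ± 0.14, adjusted p = 0.0957), and the second averaged 59.9 ± 13.8 FPKM with acetate and BHBA and 31.0 ± 16.8 FPKM in control (log2 fold change 1.10 ± 0.48, adjusted p = 0.483). GYS1, glycogen synthase, averaged 16.0 ± 1.03 FPKM with acetate and BHBA and 9.87 ± 1.60 FPKM in control (log2 fold change 0.68 ± 0.16, adjusted p = 0.156). ENO3, the muscle enolase, averaged 63.5 ± 6.58 FPKM with acetate and BHBA and 37.0 ± 11.0 FPKM in control (log2 fold change 0.81 ± 0.24, adjusted p = 0.261).

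On the lower side, HK3 averaged 0.723 ± 0.258 FPKM with acetate and BHBA and 1.91 ± 0.647 FPKM in control (log2 fold change -0.96 ± 0.32, adjusted p = 0.318). The inositol carrier SLC2A13 lay at -0.44 on the log2 scale (adjusted p = 0.733).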

How the data were processed

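RNA-seq of 6 libraries was analysed. Per the labels' protocols, poly(A) RNA was selected, made into TruSeq libraries, PCR-amplified and sequenced as paired ends. The authors deposited 1 table of FPKM values rounded to 2 decimals. The submitters' processing notes name build ARS-UCD1.2 and DESeq2, with no role. The aligner, the counter, the annotation and whether strand was used: not given in the sources used here.

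Columns were matched to samples by name, the treated ones by the acetate in their titles. Symbols came from the table, or from RefSeq protein accessions (assembly ARS-UCD2.0, names only) for 130 rows. Genes averaging 1 FPKM or more over the 6 libraries were tested on log2(FPKM + 0.5) with limma 3.58.1 (R 4.3.3), mean-variance trend, 2-sided, adjusted over all genes tested. Intervals are 95% and unadjusted. This scale understates changes of low genes. The code was tested on simulated data. The 44 members and the other lists were chosen with earlier results of these data known. Named per library are the most abundant gene of each step, members past the threshold and the 5 on each side with the smallest p. The other members were named too, and some genes of the other lists are not reported here. Alternatives were other pseudocounts (0.1, 1), filters, scalings, variance estimates, a covariate, the replicate block and leaving out each library. Python 3.11.15 made tables and figures.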

Additional observations from a re-analysis of the deposited data

How the results depend on the processing

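Of 17 alternatives, the number of genes called among all tested moved from 55 to 33 with a mean of at least 5 FPKM, 23 after rescaling to the same sum, 2089 with summed FPKM as a covariate and 0 with the replicate block, and ranged from 0 to 205 on leaving out 1 library. Quantile normalization called 35 genes higher and 27 lower, against 40 and 15 as reported. Members called moved from 1 to 11 with the covariate, to 0 with no filter, quantile normalization, the filter at 5 FPKM, rescaling, the robust estimate or the replicate block, and ranged from 0 to 2 on leaving out 1 library. In the fits with 0 calls, limma gave 584 genes at an unadjusted p under 0.05 with the block and 731 to 921 without a library. Members on the higher side stayed between 21 (trimmed-mean factors) and 29.

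The labels state no pairing by replicate number. Across genes, same-numbered libraries' deviations from their group means correlated at -0.729, -0.367 and -0.376. Control replicate 1 and acetate and BHBA replicate 1 were the highest or lowest library for 73.9% and 49.2% of genes. Such libraries can set these correlations, which therefore cannot decide whether the samples were paired. The block gave PFKM a log2 fold change of 1.13 (limma, adjusted p = 0.618).

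Small log2 fold changes turned in sign, and the cause was not tested. With trimmed-mean factors, PGAM4 stood at -0.06, CS, MDH2 and MDH1 at -0.01, IDH3A at -0.06, IDH3B at -0.05, FH at -0.0032 and SDHC at -0.0049. LDHB stood at 0.03 with quantile normalization, 0.05 after rescaling and 0.04 with the covariate, and IDH3A at -0.04 with the covariate. On leaving out 1 library the ranges were -0.03 to 0.18 for HK1, -0.39 to 0.06 for ALDOA, -0.0019 to 0.08 for PGAM4, -0.12 to 0.09 for LDHB, -0.14 to 0.40 for IDH1, -0.13 to 0.12 for IDH3A, -0.03 to 0.34 for DLST, -0.04 to 0.24 for MDH2, -0.0042 to 0.90 for HK2, -0.04 to 0.27 for IDH3G, -0.0010 to 0.13 for IDH3B, -0.04 to 0.36 for DLD, -0.06 to 0.28 for SUCLG2, -0.02 to 0.40 for SUCLA2 and -0.37 to 0.02 for SDHB.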
